A study of Mus musculus with 18 samples.

Results

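The comparison described here is between cells of the middle FoxA2-tagRFP gate that carried the helix deletion (ΔHx Mid) and cells of the same gate with the intact protein (WT Mid). Members were the libraries that the labels place in that gate, 3 of ΔHx and 3 of WT, 6 of 18 libraries in all. RNA of mouse embryos at embryonic day 7.5 was profiled, and all embryos of the series were homozygous for FoxA2 fused to the red fluorescent protein tagRFP. In FoxA2∆Hx-tagRFP embryos an α-helix of 10 residues was missing from the fused protein, and in FoxA2WT-tagRFP embryos it was complete. The tag sits on both alleles in both groups, so neither group is an untagged control. The genetic background of both groups was mixed (C57Bl6/J and CD-1), embryos were not sexed, and about 10 embryos were pooled for a sort. The Mid gate began above the autofluorescence of wild-type cells and ended at the maximum of heterozygous cells. The other gates, used here only for comparison, are High (above heterozygous cells) and Neg (no tagRFP).

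FoxA2 is a forkhead transcription factor that binds target sites in closed chromatin and is needed in the embryo for node, notochord and endoderm. At this stage the visceral endoderm, an absorptive layer around the embryo, also makes FoxA2. Parietal endoderm is the other extra-embryonic endoderm: its cells line the inside of the trophoblast and secrete a thick basement membrane, Reichert's membrane, built from laminin, type IV collagen and nidogen. The labels state that the extra-embryonic portion was removed before dissociation.

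Values are normalised read counts, that is reads per gene divided by 1 size factor per library. Changes are ΔHx minus WT on the log2(value + 1) scale, which understates the change of genes with few reads. A gene was called at a Benjamini-Hochberg adjusted p under 0.05 in a limma fit over all 14711 tested genes. Mid libraries held 13542740 to 16799783 reads in genes, with 16016 to 17666 genes detected, and the ribosomal RNA precursor Rn45s took 28.6% to 44.0% of these reads. Replicates differed by more than sampling noise, and WT Mid varied most: the median SD of a gene was 0.24 in ΔHx Mid and 0.28 in WT Mid on the log2 scale, against 0.17 to 0.25 in the other groups. Because SE values pool the spread of all 6 groups, they understate that of genes variable in WT Mid.

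The fused gene, Foxa2 (mm10, chromosome 2, 148042877 to 148046969, minus strand), had values of 547, 611 and 1229 in ΔHx Mid and 871, 812 and 621 in WT Mid. The groups overlapped, and the log2 change was -0.03 (SE 0.28, adjusted p = 0.996). Counts over the whole gene do not check the deletion, since the rest of the gene is kept. Both Mid groups lay between the High libraries (1556 to 2483) and the Neg libraries (20.3 to 62.5).

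In ΔHx Mid cells 11 genes were higher (percent called 0.0748% of tested genes) and 48 were lower (0.326%), together 59 (0.401%). All 11 rises and all 48 falls had libraries that did not overlap between the groups. Non-overlap alone was more common, called genes included: ΔHx was lower in all 3 libraries for 862 genes (5.86%) and higher for 748 (5.08%), together 1610 (10.9%). At an unadjusted p under 0.05 the fit had 1171 genes in Mid (7.96%), 1157 in High (7.86%) and 614 in Neg (4.17%). Most falls were large, and most rises were small changes of well expressed genes or low-count genes.

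**Figure D1:**
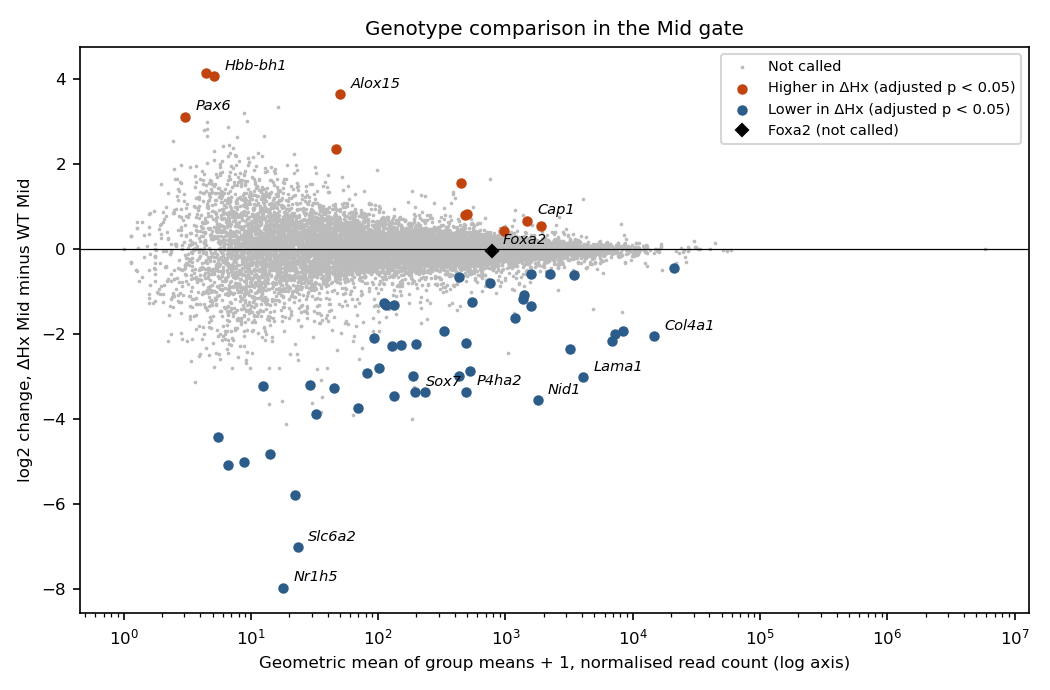
Each point is 1 of the 14711 tested genes. The horizontal axis is the geometric mean of the 2 group means plus 1 (normalised read count, log axis) and the vertical axis is the log2 change, ΔHx Mid minus WT Mid. The 11 called rises are orange, the 48 called falls are blue, and Foxa2 (black diamond) lies at -0.03.

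Among the 48 falls were genes of the basement membrane that parietal endoderm secretes. Of the 9 genes in that list 7 fell, 2 did not pass the test, and the median log2 change was -2.05. For all genes tested the median was 0.00, and 0.326% were called lower. Laminin-111, the laminin of early embryonic basement membranes, is assembled from the products of Lama1, Lamb1 and Lamc1, and all 3 genes fell. So did Col4a1 and Col4a2 for the type IV collagen chains, Nid1 for nidogen-1, which bridges laminin and collagen IV, and Sparc for a collagen-binding glycoprotein. In bulk RNA, fewer cells of a type and less RNA per cell cannot be told apart.

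Nid1 (chromosome 13, 13437551 to 13512269) had 303, 496 and 512 in ΔHx Mid and 16229, 2245 and 3437 in WT Mid. The lowest WT library was more than 4 times the highest ΔHx library, and the log2 change was -3.55 (SE 0.45, adjusted p = 0.000843). A gene listed on the opposite strand, Gm48682, overlaps it, and the library type does not record strand.

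Lama1, for the α1 chain of laminin, (chromosome 17, 67697259 to 67822647) had 1141, 1010.2 and 1432 in ΔHx Mid and 30072, 4065 and 7011 in WT Mid (log2 -3.01, SE 0.44, adjusted p = 0.00375). Lamb1, for the β1 chain, had 3442, 3627 and 4158 in ΔHx Mid and 38629, 7184 and 10118 in WT Mid (log2 -1.92, SE 0.35, adjusted p = 0.0157). Lamc1, for the γ1 chain, had 944, 969 and 1679.7 in ΔHx Mid and 19844, 2938 and 3473 in WT Mid (log2 -2.35, SE 0.44, adjusted p = 0.0185). For each chain all 3 ΔHx libraries were below the lowest WT library, while WT replicate 1 stood far above the other WT libraries.

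Col4a1 had 6076, 5449.8 and 7687 in ΔHx Mid and 68389, 12276 and 21480.2 in WT Mid (log2 -2.05, SE 0.36, adjusted p = 0.0130). Its partner Col4a2 had 2796, 2632 and 4193 in ΔHx Mid and 32599.9, 6428 and 9378 in WT Mid (log2 -1.997, SE 0.36, adjusted p = 0.0155). Sparc had 2366, 2483 and 3402 in ΔHx Mid and 37581, 5335 and 9018 in WT Mid (log2 -2.17, SE 0.40, adjusted p = 0.0184). In these genes too WT Mid was ordered replicate 1, then 3, then 2, and no ΔHx library reached the lowest WT library.

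The remaining list members had smaller differences that did not pass. Hspg2, for the heparan sulphate proteoglycan perlecan, had 1046, 1014 and 1088 in ΔHx Mid and 1941, 1353 and 1254 in WT Mid (log2 -0.50, adjusted p = 0.329). Nid2, for the second nidogen, had 2743, 2901 and 2985 in ΔHx Mid and 2639.9, 3669.7 and 3852 in WT Mid (log2 -0.22, adjusted p = 0.833). Hspg2 libraries did not overlap, those of Nid2 did, and in Nid2 WT replicate 1 was the lowest WT library.

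Leaving out WT Mid replicate 1 kept all 7 calls and lowered the changes: -2.70 for Nid1, -2.17 for Lama1, -1.47 for Lamc1, -1.36 for Col4a1, -1.35 for Sparc, -1.31 for Col4a2 and -1.19 for Lamb1. Calls of Nid1 and Lama1 were kept in all 6 fits without a Mid library (adjusted p up to 0.0108 and 0.0334), those of the other 5 ended without ΔHx replicate 1 or 2 (adjusted p up to 0.112 for Lamc1), and with the 6 Mid libraries alone none of the 7 passed (adjusted p 0.181 for Nid1 to 0.529 for Sparc). With robust variances over all 18 libraries Lamc1 (adjusted p = 0.0604), Sparc (0.0585), Lamb1 (0.0517) and Col4a2 (0.0509) did not pass.

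**Figure D2:**
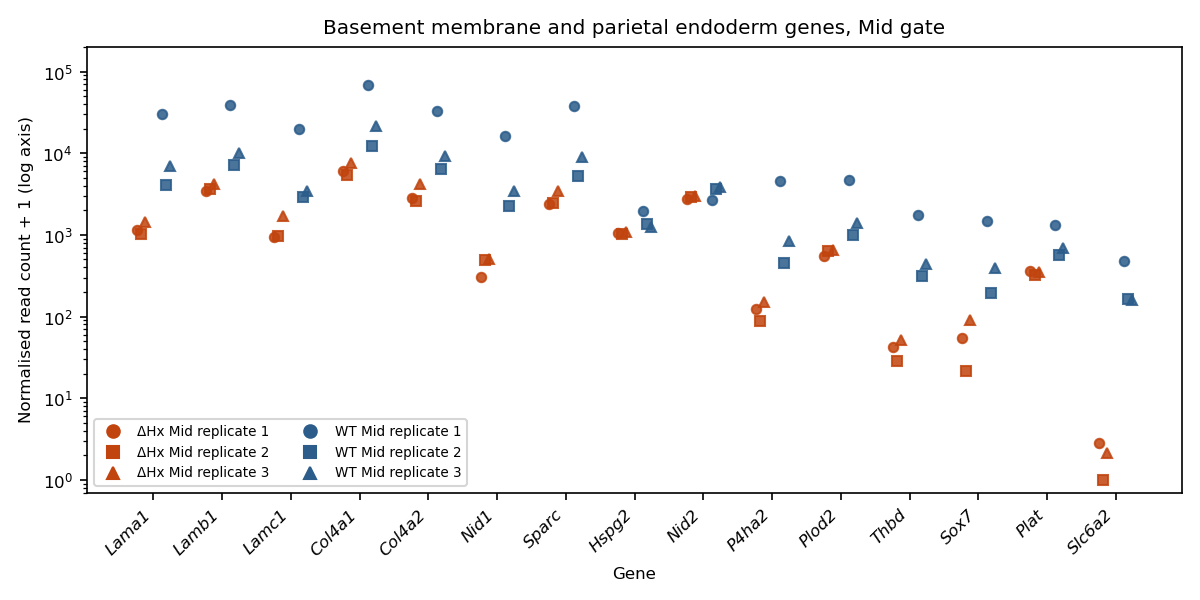
Normalised read count plus 1 (log axis) of 15 genes (basement membrane, matrix enzymes, other parietal endoderm markers and Slc6a2) in the 3 ΔHx Mid libraries (orange) and the 3 WT Mid libraries (blue), marker shape giving the replicate. Lama1 lies at 1010.2 to 1432 in ΔHx Mid and at 4065 to 30072 in WT Mid; replicate 1 (circle) is the highest WT library in every gene shown but Nid2.

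Col4a1 and Col4a2 lie head to head, and their start regions are shown because both genes fell by nearly equal amounts and share that stretch of DNA. In GRCm38.p6 (the build of mm10), RefSeq places the start of Col4a1 at 11312826 on the minus strand of chromosome 8 and that of Col4a2 at 11312805 on the plus strand, 21 bases apart. The windows from 250 bases before to 50 after each start, chr8:11312777-11313076 (minus strand) and chr8:11312555-11312854 (plus strand), overlap by 78 bases. These sequences run 5′ to 3′ on the strand of each gene, and capitals mark the 78 shared bases.
Col4a1: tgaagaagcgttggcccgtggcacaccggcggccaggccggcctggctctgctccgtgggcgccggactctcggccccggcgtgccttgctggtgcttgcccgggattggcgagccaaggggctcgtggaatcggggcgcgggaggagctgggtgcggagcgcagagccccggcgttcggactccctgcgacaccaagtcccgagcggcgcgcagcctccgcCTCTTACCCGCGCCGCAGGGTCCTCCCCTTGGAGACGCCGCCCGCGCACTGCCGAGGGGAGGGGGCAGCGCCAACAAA
Col4a2: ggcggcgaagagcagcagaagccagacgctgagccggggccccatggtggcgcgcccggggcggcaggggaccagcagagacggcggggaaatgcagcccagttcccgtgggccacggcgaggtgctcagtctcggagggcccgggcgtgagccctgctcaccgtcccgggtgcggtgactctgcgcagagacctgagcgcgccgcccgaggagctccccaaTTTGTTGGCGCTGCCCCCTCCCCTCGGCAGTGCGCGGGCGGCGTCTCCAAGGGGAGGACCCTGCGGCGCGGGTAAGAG
The transcripts also overlap on opposite strands, so reads in the overlap cannot be assigned to either gene by strand.

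Promoter windows were searched on both strands for 3 short motifs, none of which contains another. The forkhead motif was taken as TGTTTAC, or with its second base changed as TATTTAC. For the GATA family the letters searched were AGATAA. For the SOX family the letters searched were AACAAT. Of the 7 called basement membrane genes 5 had a window and 0 had a match. Of the 48 falls 29 had a window, and 1 (3.45%) held the forkhead motif, 0 the GATA motif and 2 (6.90%) the SOX motif. Over the 11157 tested genes with a window the shares were 4.99%, 7.87% and 7.04%.

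Enzymes that modify collagen were also among the falls. Of 16 genes for collagen and matrix secretion 2 fell, 0 rose, all 16 had a log2 change below 0 (Mia3 at -0.004), and the median was -0.76. Over all 14711 tested genes 0.326% were called lower and 7228 had a change below 0. P4ha2, a subunit of a collagen prolyl hydroxylase, had 124, 86.8 and 152 in ΔHx Mid and 4567, 452 and 844 in WT Mid (log2 -3.34, SE 0.54, adjusted p = 0.00695). Plod2, a collagen lysyl hydroxylase, had 548, 626 and 657 in ΔHx Mid and 4637, 991 and 1401 in WT Mid (log2 -1.61, SE 0.33, adjusted p = 0.0296). In both genes the WT libraries kept the order replicate 1, 3, 2.

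Plod3, a related enzyme, had 587, 553 and 716 in ΔHx Mid and 4347, 923 and 1281 in WT Mid but did not pass (adjusted p = 0.0625). Serpinh1, the collagen chaperone, had 4262, 3872 and 5055 in ΔHx Mid and 31259, 5821 and 9789 in WT Mid and did not pass (adjusted p = 0.0823). Mia3, a cargo receptor for the export of collagen, was near equal at 1622, 1547 and 1644 in ΔHx Mid and 1730.3, 1597 and 1505 in WT Mid. The call of P4ha2 ended without ΔHx replicate 2 (adjusted p = 0.0565), that of Plod2 without any 1 ΔHx library (adjusted p up to 0.128), and without WT replicate 1 the changes were -2.38 and -0.95.

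Of 9 parietal endoderm markers outside the basement membrane 2 fell, 0 rose and all 9 had a log2 change below 0, with a median of -1.23. Of all 14711 tested genes 0.326% were called lower and 7228 had a change below 0. Sox7, a SOX transcription factor of parietal endoderm and endothelium, had 53.0, 20.5 and 88.9 in ΔHx Mid and 1478, 194 and 388 in WT Mid (log2 -3.36, SE 0.70, adjusted p = 0.0347). Plat, tissue plasminogen activator, had 362, 326 and 346 in ΔHx Mid and 1334, 570.2 and 694 in WT Mid (log2 -1.23, SE 0.25, adjusted p = 0.0277).

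Thbd, the anticoagulant receptor thrombomodulin, had the largest difference in the list but did not pass: 41.9, 27.3 and 50.2 in ΔHx Mid and 1769, 312 and 444 in WT Mid (log2 -3.99, SE 0.90, adjusted p = 0.0605). Srgn, a granule proteoglycan, had 194, 319.8 and 643 in ΔHx Mid and 6577, 854 and 1149.8 in WT Mid (adjusted p = 0.142). Vim, for vimentin, overlapped, with 1239, 1191 and 1308 in ΔHx Mid and 1679.6, 1033 and 1271 in WT Mid. The calls of Sox7 and Plat ended in 4 of the 6 fits that left out a Mid library: ΔHx replicate 1 or 2 or WT replicate 1 for both, WT replicate 3 for Sox7 and ΔHx replicate 3 for Plat (adjusted p up to 0.203 and 0.133).

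Summed over each list, the basement membrane genes reached 20857, 20582 and 27136 in ΔHx Mid and 247926, 45494 and 69022 in WT Mid. Over both genotypes the sums were 14201 to 19909 in the High gate and 10478 to 11097 in the Neg gate. Each ΔHx Mid sum lay above all of these and below every WT Mid library. The other parietal endoderm markers summed to 6108, 6037 and 6187 in ΔHx Mid and 37547, 8231 and 10139.5 in WT Mid, with all 9 genes read in each Mid library. Over both genotypes this list summed to 2692 to 3394 in High and 5827 to 7395 in Neg. Its ΔHx Mid sums thus lay within the Neg range, and WT Mid replicate 2 was not far above it. The sums of both lists were highest in WT Mid replicate 1, and the part of parietal endoderm RNA in the other falls was not tested.

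**Figure D3:**
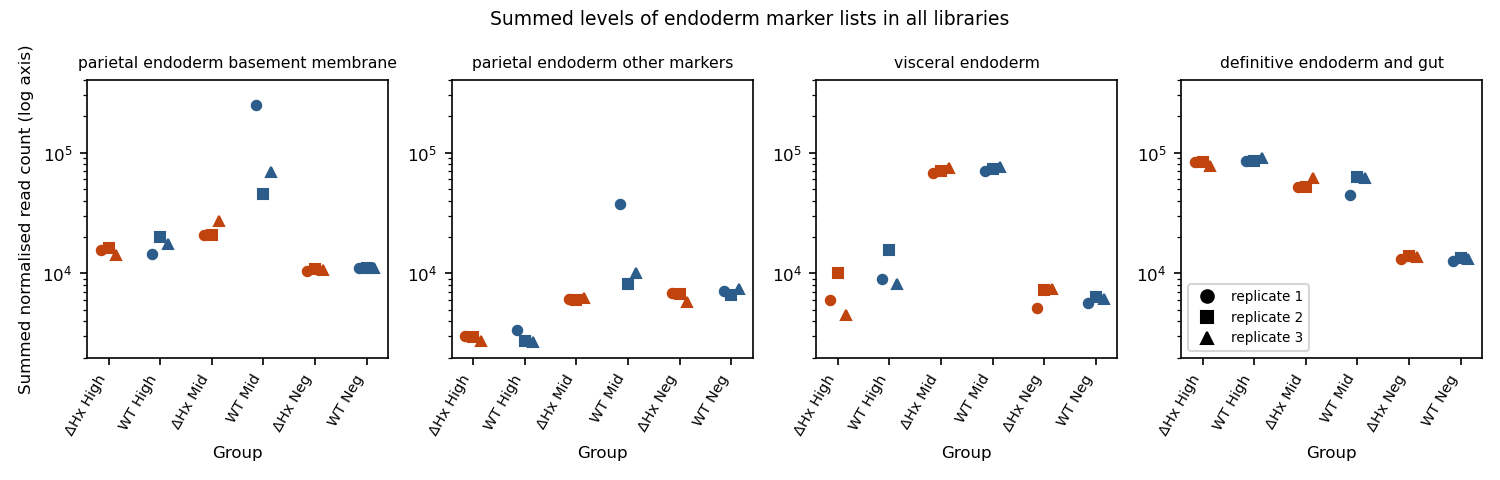
Summed normalised read count (log axis) of 4 endoderm marker lists in the 18 libraries, ΔHx (orange) left of WT (blue) within each gate, marker shape giving the replicate. The basement membrane sums separate ΔHx Mid (20582 to 27136) from WT Mid (45494 to 247926), and the visceral endoderm sums do not (68150 to 75184 in ΔHx Mid, 69793 to 76111 in WT Mid).

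Visceral endoderm genes marked the Mid gate in both genotypes and did not differ past the threshold. Of 21 tested genes 0 were called and the median was 0.02. Their summed level was 68150, 70270 and 75184 in ΔHx Mid and 69793, 73859 and 76111 in WT Mid, against 4543 to 15538 in High and 5162 to 7387 in Neg. ΔHx Mid and WT Mid overlapped, and both were above every High and Neg library.

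The plasma carrier gene Ttr had 5344, 5256 and 5786 in ΔHx Mid and 4894, 6199 and 5659 in WT Mid. Cubn, an endocytic receptor, had 8721, 8791 and 8633 in ΔHx Mid and 7595, 9489 and 8437 in WT Mid. Hnf4a, a transcription factor of visceral endoderm, had 556, 582 and 834 in ΔHx Mid and 586, 584 and 451 in WT Mid. All 3 overlapped between genotypes. Ctsl, a lysosomal protease with the smallest p in the list, did not pass either (log2 -0.32, SE 0.16, adjusted p = 0.660).

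Definitive endoderm genes had no call among 17 tested, with a median of 0.03. Sox17, a transcription factor of definitive and other endoderm, had 1188, 1227 and 1432 in ΔHx Mid and 1947, 1680.1 and 2013 in WT Mid. The libraries did not overlap, but the change did not pass (log2 -0.55, SE 0.18, adjusted p = 0.329). Ripply3, a transcriptional co-repressor, had 11.2, 26.3 and 20.5 in ΔHx Mid and 35.6, 38.2 and 40.1 in WT Mid, also without overlap or a call (log2 -1.01, adjusted p = 0.716). The pioneer factor gene Foxa1 had 259.6, 247 and 376 in ΔHx Mid and 373, 311 and 176 in WT Mid, with overlap.

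Among 14 endoderm transcription factors only Sox7 was called, and the median was 0.04. Gata4 had 906, 879 and 1146 in ΔHx Mid and 3391, 1114 and 1454 in WT Mid (log2 -0.86, SE 0.32, adjusted p = 0.404). Gata6 had 209, 215 and 439 in ΔHx Mid and 889, 305 and 195 in WT Mid (adjusted p = 0.901). WT replicate 1 was again the highest WT library for both GATA factor genes.

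The anterior visceral endoderm list, which marks the head-forming side of that layer, had no call among 11 genes and a median of 0.07, but its ΔHx libraries were spread widely. It summed to 12639.7, 18223 and 25833 in ΔHx Mid and 21522, 20042 and 13109.5 in WT Mid, with overlap. Cer1, a secreted Nodal and BMP inhibitor, had 1827, 2070.1 and 2830.3 in ΔHx Mid and 3535, 2626 and 2772 in WT Mid (log2 -0.42, SE 0.22, adjusted p = 0.686). Dkk1, a secreted WNT inhibitor, had 969.6, 1073 and 1333 in ΔHx Mid and 1495, 1314 and 1084 in WT Mid. Both inhibitor genes overlapped between the genotypes. The organiser gene Gsc had 84.7, 213 and 623 in ΔHx Mid and 333, 391 and 142 in WT Mid. In both the sum and Gsc, replicate 3 was the highest library of ΔHx Mid and the lowest of WT Mid.

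Node and notochord genes had 1 call among 13, with a median of -0.05. Nog, for the BMP antagonist noggin, had 52.1, 63.4 and 31.9 in ΔHx Mid and 732, 114 and 151 in WT Mid (log2 -2.27, SE 0.45, adjusted p = 0.0277). The notochord gene T had 3189, 3571 and 2241 in ΔHx Mid and 3958, 2856 and 2517 in WT Mid, and Chrd, a BMP antagonist of the node, had 708, 803 and 714 in ΔHx Mid and 958, 994 and 807 in WT Mid. T overlapped and Chrd did not, neither was called, and Nog shared the WT order 1, 3, 2 of the basement membrane genes. The Nog call ended without any 1 ΔHx library (adjusted p up to 0.131), and without WT replicate 1 its change was -1.45.

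Beyond the lists, the largest falls included genes nearly silent in ΔHx Mid cells. Slc6a2, the noradrenaline transporter (chromosome 8, 92960079 to 93001667), had values of 1.86, 0 and 1.14 in ΔHx Mid and 482, 165 and 160.4 in WT Mid (log2 -7.00, SE 0.76, adjusted p = 0.000131). It had 3 reads in all ΔHx Mid libraries and 709 in WT Mid, a ratio of 240.6 (exact 95% interval 82.0 to 1170, covering counting error only). In High and Neg it was nearly silent in both genotypes, at 0 to 4.06 in any library. Among the 59 calls of the Mid comparison, that of Slc6a2 alone was kept under every alternative tried.

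Nr1h5, a nuclear receptor of the farnesoid X type (chromosome 3, 102939658 to 102964133), had 0 reads in all 3 ΔHx Mid libraries and 811 in WT Mid, where its values were 653, 151 and 153. With a floor of 3 reads in each ΔHx library it was at least 104.8-fold lower (adjusted p = 9.33e-07). Unlike Slc6a2 it also fell in the other gates, with 0 in each ΔHx High library and 1.12 to 4.13 in ΔHx Neg, against 75.5 to 243 in WT High and 139.9 to 525 in WT Neg.

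Slc41a2, a magnesium transporter, had 0 reads in ΔHx Mid and 109 in WT Mid, at least 14.2-fold lower (adjusted p = 0.0203, but 0.0519 by edgeR on recovered reads). Rem1, a small GTP-binding protein, had 0 and 73 reads, at least 9.76-fold lower in ΔHx Mid (adjusted p = 0.0135). Ptk6, a soluble tyrosine kinase, had 1 read in ΔHx Mid and 144 in WT Mid, a ratio of 146.6 (exact 95% interval 25.9 to 5831). Few reads stand behind each of these. In all 3 genes the highest normalised value was that of WT replicate 1, at 91.8, 67.1 and 111.

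Larger values were behind the other leading falls. Hs3st1, an enzyme that sulphates heparan sulphate, had 64.2, 59.5 and 44.5 in ΔHx Mid and 2251, 207 and 413 in WT Mid (log2 -3.36, SE 0.58, adjusted p = 0.0114). Fabp3, a fatty acid binding protein, had 27.9, 18.5 and 43.3 in ΔHx Mid and 1392, 109 and 216 in WT Mid (log2 -3.46, SE 0.62, adjusted p = 0.0135). Drp2, a relative of dystrophin, had 2.79, 19.5 and 31.9 in ΔHx Mid and 541, 80.2 and 133 in WT Mid (log2 -3.72, SE 0.81, adjusted p = 0.0477). In all 3 genes the WT libraries were ordered replicate 1, 3, 2. The changes of Tpbgl, Lgi4 and Wfdc1 were -5.78, -4.81 and -3.87 (adjusted p = 0.0135, 0.0418 and 0.0347), with that same order of WT libraries.

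Of the 12 largest falls, Nr1h5, Slc6a2 and Nid1 kept their calls without each single Mid library, and the other 9 lost them in 1 to 5 of the 6 such fits. The fewest losses were those of Hs3st1 (without ΔHx replicate 2 only, adjusted p = 0.0558), and Drp2 reached an adjusted p of 0.262 without WT replicate 1. Fabp3 was lost without ΔHx replicate 1 or 2, and Ptk6 without ΔHx replicate 2 or WT replicate 1. Tpbgl was lost without ΔHx replicate 1 or 3 or WT replicate 1, and Rem1 without ΔHx replicate 1 or 2 or WT replicate 1. Slc41a2 was lost without any ΔHx library or WT replicate 1, Drp2 without ΔHx replicate 1 or 2 or WT replicate 1 or 3, and Lgi4 and Wfdc1 without any library but WT replicate 2.

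A single library stood out behind most falls. In 37 of the 48, WT Mid replicate 1 was at least 1.5 times both other WT Mid libraries, and by a median of 3.82 times the higher of them (range 1.68 to 6.44). Among all tested genes 1277 (8.68%) had that pattern. Because the libraries of all 48 falls did not overlap, the mean of WT replicates 2 and 3 had to lie above the ΔHx mean. In the 37 it did so by at least 1.45 times. In 39 of the 48 falls the WT libraries were ordered replicate 1, 3, 2. That order was not counted over all tested genes, so no share stands beside it. Without WT replicate 1 the fit called 10 rises and 27 falls, and what sets that library apart was not tested.

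Several falls outside the lists, named here after their values were seen, followed the same WT order. Epas1, a hypoxia-inducible factor, had 148, 98.5 and 148 in ΔHx Mid and 2989, 496 and 729 in WT Mid. Tinagl1, a basement membrane glycoprotein, had 148, 114 and 242 in ΔHx Mid and 3345, 454 and 1038 in WT Mid. F3, tissue factor, had 59.6, 77.0 and 42.2 in ΔHx Mid and 1073, 184 and 494 in WT Mid. All 3 fell without overlap (adjusted p = 0.0130, 0.0184 and 0.00513), and F3 kept its call without each single Mid library. With the 6 Mid libraries alone none of the 3 passed (adjusted p = 0.212, 0.348 and 0.205). The call of Epas1 ended without ΔHx replicate 2 (adjusted p = 0.0801), and that of Tinagl1 without ΔHx replicate 1 or 2 or WT replicate 1 (adjusted p up to 0.112).

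Pdpn, for podoplanin, had 942, 865 and 1136 in ΔHx Mid and 3767, 1850.1 and 2138 in WT Mid (log2 -1.34, SE 0.20, adjusted p = 0.00375). Nrcam, a cell adhesion protein, had 32.6, 25.4 and 47.9 in ΔHx Mid and 529, 159.5 and 167 in WT Mid (log2 -2.79, SE 0.40, adjusted p = 0.00327). Both calls were kept without each single Mid library, but with the 6 Mid libraries alone neither passed (adjusted p = 0.205 and 0.181). Both genes were named after their values were seen.

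The 11 other falls did not have a WT replicate 1 that far above the rest. They include Mcm8, a DNA helicase of recombination, with 292, 331 and 404 in ΔHx Mid and 582, 536 and 492 in WT Mid (log2 -0.66, SE 0.13, adjusted p = 0.0296). Ncapd2, a condensin subunit, had 1969, 1883 and 1614 in ΔHx Mid and 2474, 2653 and 3078 in WT Mid (log2 -0.59, SE 0.11, adjusted p = 0.0219). Hspa8, a constitutive chaperone, had 17672, 18457 and 18202 in ΔHx Mid and 22513, 23557 and 27229.5 in WT Mid (log2 -0.43, SE 0.08, adjusted p = 0.0160). In these genes the WT libraries were close together, and all 3 genes were named after their values were seen. Hspa8, Rpl29 and Gm1821, which also fell, have near-identical copies in the genome, so their reads may be split or shared and their values are uncertain. Calls of Mcm8, Ncapd2, Hspa8, Rpl29 and Gm1821 each ended in 1 to 4 of the 6 fits without a Mid library, all of them without ΔHx replicate 2 (adjusted p up to 0.175 for Mcm8).

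The rises were led by genes with few or no reads in WT Mid. A530016L24Rik, which is named for its values, was at 8.37, 19.5 and 28.5 in ΔHx Mid and at 0 in each WT Mid library, 54 reads against 0, at least 5.88-fold higher. Hbb-bh1, an embryonic globin, had values of 43.7, 31.2 and 2.28 in ΔHx Mid and 0 in each WT Mid library, 81 reads against 0, at least 8.05-fold higher (adjusted p = 0.0363). It was the only called gene of 18 in the blood and endothelium list, whose median was -0.17. In that list 2 genes had 0 reads in a group. In 1 of them the sum of the other group did not exceed the summed floors. With that gene left out and the other at its bound, the median was -0.13. Pax6, a neural transcription factor, had 11.2, 8.78 and 4.56 in ΔHx Mid and 0 in each WT Mid library, 25 reads against 0, at least 2.55-fold higher (adjusted p = 0.0296). It was the only call among 12 neural genes, whose median was 0.15, and its transcript is overlapped by Pax6os1 on the other strand. Hbb-bh1 and Pax6 lost their calls in 5 and 4 of the 6 fits without a Mid library (adjusted p up to 0.209 and 0.153), both without ΔHx replicate 1 or 2 or WT replicate 1 or 3, and Hbb-bh1 also without WT replicate 2. By edgeR on recovered reads Hbb-bh1 did not pass (adjusted p = 0.177). Both genes were read in Neg cells of either genotype and were not called there. Hbb-bh1 averaged 729 in ΔHx Neg and 396 in WT Neg, and Pax6 13.6 and 11.8. The part of such cells in the Mid values was not tested.

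Alox15, a lipoxygenase (chromosome 11, 70344152 to 70352031), had 206, 179 and 140.3 in ΔHx Mid and 8.22, 15.3 and 16.6 in WT Mid (log2 3.65, SE 0.46, adjusted p = 0.000843). Every ΔHx library was more than 8 times the highest WT library, and the call was kept without each single Mid library. Cap1, an actin-regulating protein, had 1764, 1834 and 1975 in ΔHx Mid and 1101, 1189 and 1186 in WT Mid (log2 0.68, SE 0.10, adjusted p = 0.00377). Its replicates were tight in both groups, and a gene on the other strand, Ppt1, overlaps it. With the 6 Mid libraries alone Cap1 did not pass (adjusted p = 0.166).

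Hyou1, an endoplasmic reticulum chaperone, had 2519.8, 2334 and 2064 in ΔHx Mid and 1700.1, 1391 and 1659 in WT Mid (log2 0.54, SE 0.10, adjusted p = 0.0185). It was the only call in the unfolded protein response list. Of the 16 genes in that list 15 had a change below 0, against 7228 of all 14711 tested genes, and the median was -0.28. The main chaperone gene Hspa5 had 18757, 18398 and 21612 in ΔHx Mid and 31227, 20515 and 22106 in WT Mid (adjusted p = 0.459). Lpar2, a lysophosphatidic acid receptor, had 581, 530.5 and 806 in ΔHx Mid and 363, 389.7 and 332 in WT Mid (log2 0.80, SE 0.15, adjusted p = 0.0216). Tmem87a and Ctc1, a telomere protein, rose by 0.83 and 0.44 on the log2 scale (adjusted p = 0.0359 and 0.0402). Calls of Hyou1, Lpar2, Tmem87a and Ctc1 each ended in 3 to 5 of the 6 fits that left out a Mid library (adjusted p up to 0.203 for Tmem87a).

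The same contrast was fitted in the other gates. In the High gate 9 genes were higher (0.0612%) and 9 lower (0.0612%) in ΔHx, together 18 (0.122%). In Neg 20 were higher (0.136%) and 16 lower (0.109%), together 36 (0.245%). Of the 59 Mid calls 46, made up of 4 rises and 42 falls, were not called in High or Neg. A call in 1 gate and not in another is no test of a difference. The difference itself passed for 2 genes between Mid and High (0.0136%), Slc6a2 (log2 -7.09, SE 1.07, adjusted p = 0.0359) and Nid1 (log2 -3.99, SE 0.64, adjusted p = 0.0422), and for 1 gene between Mid and Neg (0.00680%), Slc6a2 (log2 -7.62, SE 1.07, adjusted p = 0.0133). With the replicate number as a block Nid1 did not pass (adjusted p = 0.0826), and with the number as a block within each genotype it did (adjusted p = 0.0331). The basement membrane list had a median change of -2.05 in Mid, -0.24 in High and -0.08 in Neg.

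The other 13 Mid calls were also called in Neg, in the same direction. Of these 7 were called in all 3 gates: Nr1h5 and Gm1821 were lower, and Hyou1, Cap1, Lpar2, Alox15 and A530016L24Rik were higher in ΔHx. Alox15 was 408 to 524 in ΔHx High against 31.9 to 179 in WT High, and 405 to 622 in ΔHx Neg against 23.6 to 62.8 in WT Neg. Cap1 changed by 0.85 in High and 0.85 in Neg on the log2 scale, and Hyou1 by 0.89 and 0.68. Neg cells had Foxa2 values of at most 62.5, averaging 53.6 in ΔHx and 28.2 in WT (log2 0.95, adjusted p = 0.405). Whether these genotype differences depend on FoxA2 was not tested.

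**Figure D4:**
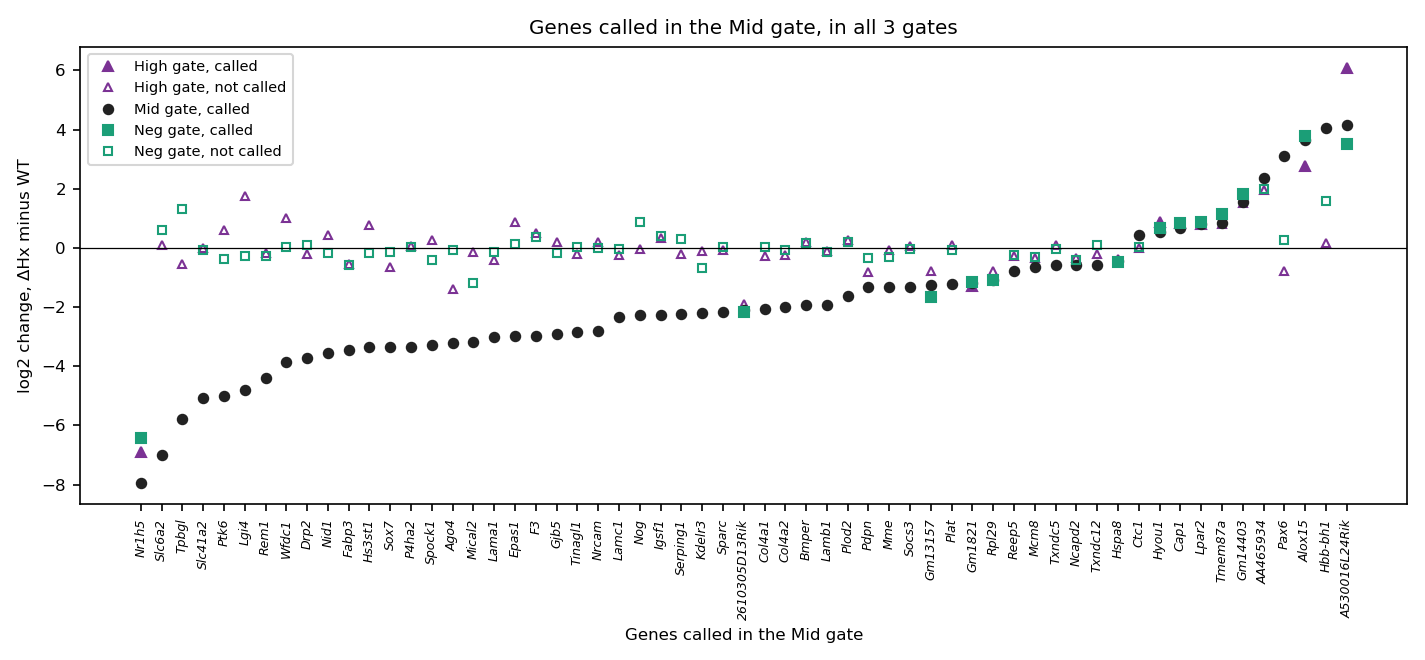
Log2 change, ΔHx minus WT, of the 59 genes called in the Mid gate (black), with their changes in the High gate (triangles) and the Neg gate (squares), filled where called there. Genes are ordered by the Mid change: Nr1h5 at the left and Alox15 and A530016L24Rik at the right are filled in all 3 gates, while Slc6a2 is at -7.00 in Mid, 0.08 in High and 0.61 in Neg.

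Markers of other tissues gave few calls. Nascent and paraxial mesoderm genes had 0 calls among 22 and a median of 0.31, with Meox1, a somite transcription factor, at 919, 764 and 608 in ΔHx Mid and 229, 460.4 and 513 in WT Mid (log2 0.99, SE 0.27, adjusted p = 0.163). Dll1, a Notch ligand of that mesoderm, had 4019.7, 3757 and 2899 in ΔHx Mid and 2343, 2535 and 2684 in WT Mid (adjusted p = 0.244). Neither gene overlapped between the groups, and neither was called. Lateral and cardiac mesoderm genes had 0 calls among 18 and a median of 0.35. In 1 gene with 0 reads in a group, the sum of the other group did not exceed the summed floors. Without that gene the median was 0.26.

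Epiblast genes had 0 calls among 12 and a median of -0.10. Tdgf1, a Nodal co-receptor, had 626, 645 and 1180.2 in ΔHx Mid and 1614, 1914 and 1083 in WT Mid (log2 -0.94, SE 0.30, adjusted p = 0.300), with overlap. Kit, the receptor of stem cell factor and the smallest p of 7 germ cell genes, had 479, 359.8 and 506 in ΔHx Mid and 1552, 630.4 and 701 in WT Mid (log2 -0.99, SE 0.24, adjusted p = 0.0895). Kit did not overlap and again had WT replicate 1 highest. Alpl and Pim2, the other genes named from the germ cell and epiblast lists by smallest p, had changes of -0.61 and -0.47 (adjusted p = 0.440 and 0.312).

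Trophoblast, decidua, motile cilia and Hox lists had 0 calls among 11, 6, 18 and 19 genes, with medians of 0.01, -0.20, 0.08 and 0.37. In the trophoblast, decidua and Hox lists 1 gene each had 0 reads in a group and a sum in the other that did not exceed the summed floors. Without that gene the medians were -0.07 for trophoblast, 0.11 for decidua and 0.38 for Hox genes. Hoxb7, a posterior patterning gene, had values of 0.93, 6.83 and 2.28 in ΔHx Mid and 20.5, 15.3 and 14.8 in WT Mid (log2 -2.27, SE 0.60, adjusted p = 0.134). Hoxb1, an anterior member of the same cluster, had 1765, 1562 and 1063 in ΔHx Mid and 555, 1253 and 984 in WT Mid (log2 0.70, SE 0.24, adjusted p = 0.364). Hoxb7 was low but without overlap, and Hoxb1 overlapped.

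Genes with the smallest p in 3 of these lists did not pass either. Rhox6 and Krt7 of the trophoblast list had changes of -1.05 and -0.19 (adjusted p = 0.842 and 0.920). Dcn and Wnt4 of the decidua list were at 17.6 or below in every Mid library (adjusted p = 0.759 and 0.872). Among cilia genes Dnah11, for a dynein arm, had 117, 171 and 179 in ΔHx Mid and 87.7, 135 and 117 in WT Mid, with overlap (adjusted p = 0.795). Rfx3, a transcription factor of ciliated cells, had 954, 912 and 1032 in ΔHx Mid and 917, 903 and 683 in WT Mid (adjusted p = 0.876), with overlap.

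Integrin and other receptors of basement membrane had 0 calls among 12 and a median of -0.12, with changes between -0.71 and 0.39. Itgav, an integrin α chain, had 519, 531 and 414 in ΔHx Mid and 782, 684 and 762 in WT Mid (log2 -0.61, SE 0.15, adjusted p = 0.0902). Itgb1, the common integrin β chain, had 3846, 3253 and 3033 in ΔHx Mid and 4439, 3889 and 4113 in WT Mid (adjusted p = 0.206). Neither gene overlapped between the groups, and the WT libraries of both were ordered replicate 1, 3, 2.

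Cholesterol synthesis genes had 0 calls among 19 and a median of -0.32. Insig1, a sterol sensor, had 233, 227 and 251 in ΔHx Mid and 1055, 301 and 822 in WT Mid (log2 -1.43, SE 0.34, adjusted p = 0.0853). Sc5d, a sterol desaturase, had 234, 309 and 338 in ΔHx Mid and 458, 483 and 656 in WT Mid (log2 -0.85, SE 0.25, adjusted p = 0.206). Neither gene overlapped between the groups, and WT replicate 2 of Insig1 came closest to ΔHx. The list summed to 10837, 10496 and 11809 in ΔHx Mid and 10676, 12320.5 and 24163 in WT Mid. WT replicate 3 was also the highest WT library in High (23184) and in Neg (25958), against 11659 to 14235 in the other WT libraries of those gates.

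S phase, mitosis and dissociation stress lists had 0 calls among 19, 18 and 12 genes, with medians of -0.02, -0.08 and -0.02. Cdt1, a replication licensing factor, had 1454, 1480.2 and 1905 in ΔHx Mid and 1434, 1550.2 and 1094 in WT Mid, with overlap (adjusted p = 0.749). Aurka, a mitotic kinase, and Birc5, for survivin, had changes of -0.21 and -0.11 (adjusted p = 0.759 and 0.844), and the stress genes Jun and Hspa1a of 0.41 and -0.86 (adjusted p = 0.739 and 0.853). Pcna, the replication clamp, had 2477, 2266 and 2082 in ΔHx Mid and 2719, 2901 and 2975 in WT Mid (log2 -0.34, SE 0.08, adjusted p = 0.0813), without overlap.

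No sex-linked gene was called, but the pools did not overlap in the Y-linked ones. Eif2s3y, on the Y chromosome, had 377, 409 and 375 in ΔHx Mid and 111, 194 and 272 in WT Mid (log2 1.10, SE 0.25, adjusted p = 0.0740). Kdm5d, a Y-linked histone demethylase gene, had 303, 293 and 263 in ΔHx Mid and 61.6, 163 and 132 in WT Mid (adjusted p = 0.117). All 4 Y-linked genes tested were higher in ΔHx Mid without overlap, with changes of 1.10 to 1.37, and the list's median was 1.28. Xist, made by the inactive X, had 2614, 2357 and 3305 in ΔHx Mid and 8087, 4667 and 1829 in WT Mid, highest in WT replicate 1. The part of the pools' sex makeup in the other differences was not tested.

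**Figure D5:**
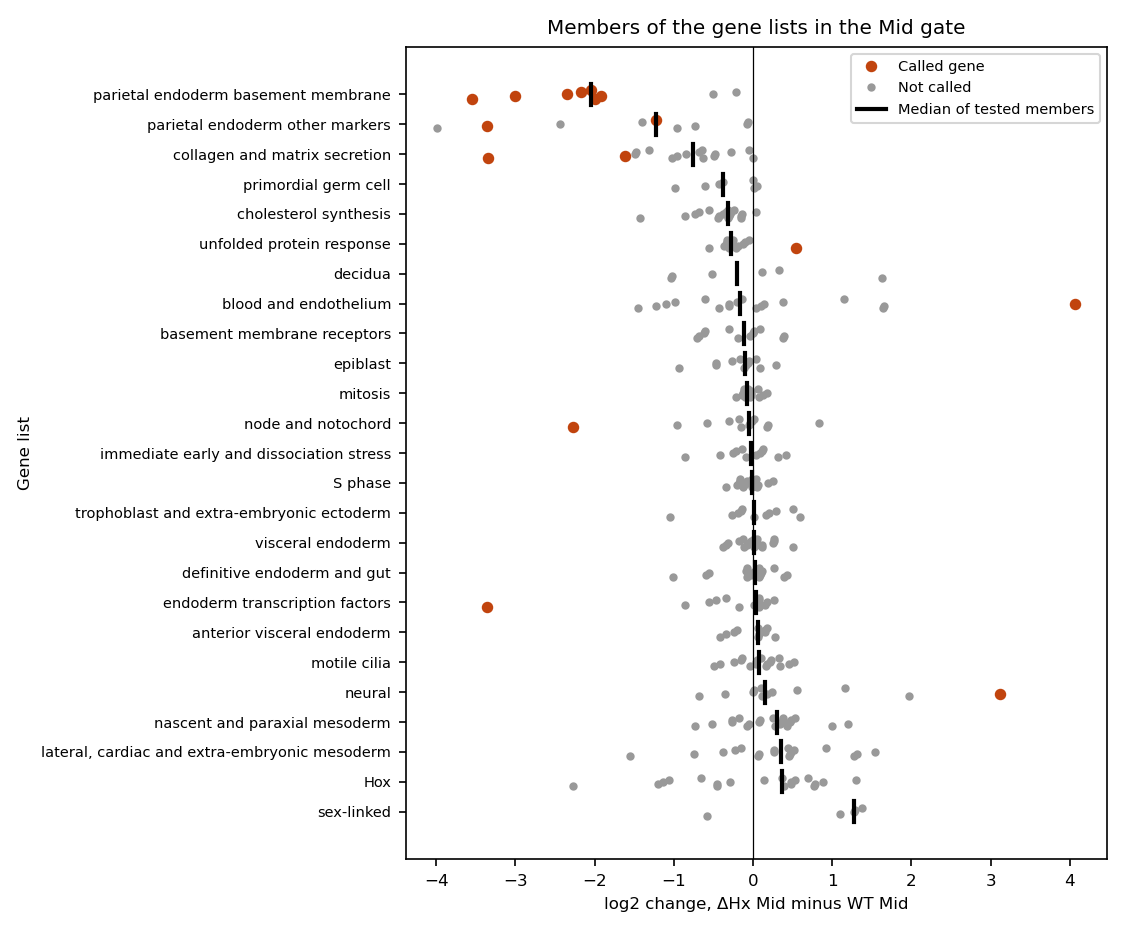
Log2 change, ΔHx Mid minus WT Mid, of each tested member of 25 gene lists (called genes orange, others grey), with the list's median as a black bar and lists ordered by median. The basement membrane list is at the top with a median of -2.05, and the sex-linked list is at the bottom with 1.28.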

How the data were processed

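RNA of sorted cells was read by SMART-Seq2, which keeps no strand, as 75-base single-end reads of material from 1000 cells, per the labels' protocols. The deposited signal values are HTSeq reads per gene that the authors divided by a size factor per library: 440964 of 440964 values were whole reads within 1e-06 after rescaling. The submitters' processing notes name STAR 2.5.2a, HTSeq 0.6.1, DESeq, DESeq2 and mm10 but no annotation release. Besides 24498 genes, 5 counters were left out; over all libraries no feature took 7.17% to 12.1%, ambiguous 0.495% to 0.756% and not unique 37.7% to 41.3% of records.

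Changes came from limma 3.58.1 (R 4.3.3) on log2(value + 1), with a mean trend and 6 group means over 18 libraries, for 14711 genes at 10 or more in at least 3 libraries. P-values were Benjamini-Hochberg adjusted over these genes. Labels call the 3 samples per group biological replicates; ratios carry exact 95% intervals and floors of 3 reads per library, for counting error only. Count tests on recovered reads (edgeR 4.0.16, DESeq2 1.42.0), other pseudocounts, filters and scalings, robust variances, array weights, replicate blocks and fits without each Mid library were alternatives. Scripts were tested on simulated data. Named were Foxa2, the 12 largest falls and up to 10 largest rises called without overlap (higher group averaging 20 or more, clone-like names left out), every called list member, up to 2 members with the smallest p of each list without a call, and genes whose effect differed between gates; other genes were named after their values were seen. A gene that this rule names is not reported here. The groups, gene lists and tests were chosen with earlier results of these data known. Genes were placed with GENCODE vM21 on GRCm38.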

Additional observations from a re-analysis of the deposited data

Results flagged for a closer look

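The genotype effect differed between gates for 2 genes, by a test of the difference itself in the fit over all 18 libraries (limma, adjusted over all genes). The effect on Slc6a2 in Mid minus that in High was -7.09 (SE 1.07, adjusted p = 0.0359; 0.000137 to 0.277 over the alternatives), and Mid minus Neg was -7.62 (SE 1.07, adjusted p = 0.0133; 3.57e-06 to 0.134 over the alternatives). All 3 ΔHx Mid libraries had at most 1.86 and all 3 WT Mid libraries at least 160.4, while no High or Neg library passed 4.06. The Mid minus High difference passed in 11 of 18 alternatives, and Mid minus Neg in 14 of 18.

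For Nid1 the effect in Mid minus that in High was -3.99 (SE 0.64, adjusted p = 0.0422; 0.000118 to 0.221 over the alternatives), with Nid1 lower in 3 of 3 ΔHx Mid libraries; it passed in 10 of 18 alternatives. Mid minus Neg was -3.38 and did not pass (adjusted p = 0.173; 0.00250 to 0.490 over the alternatives, past the threshold in 3 of 18: DESeq2 and without WT Mid replicate 1 or 2).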

How the results depend on the processing

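Calls (11 higher, 48 lower) became 1 and 2 with the 6 Mid libraries alone, 128 and 139 with array weights, 42 and 137 with DESeq2, and 1 and 1 with edgeR on the 6 Mid libraries; edgeR on all libraries gave 11 and 63. The share of calls that were higher was 18.6% in the reported fit, 47.9% with array weights, 33.3% with the 6 Mid libraries alone and 50% with edgeR on them. Leaving out each Mid library gave 3 to 15 higher and 9 to 117 lower, and 11 of the 59 calls were kept in all 6 such fits. Same-numbered ΔHx and WT Mid libraries did not deviate together (correlations -0.12, 0.00177 and -0.17). Same-numbered libraries of different gates did so weakly, at 0.016 to 0.10 within ΔHx and 0.049 to 0.29 within WT, above all pairs of unlike number (up to 0.015 and 0.036), a hint from the data and not the design. A replicate block gave 12 and 52 calls, and on the 6 Mid libraries 0 and 2 (share higher 0%).

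Differences between Mid and High (2 genes) numbered 0 at pseudocount 0.5, 1 without a filter, 0 with a filter at 50, 1 with a replicate block, 5 with a replicate block within genotype (added after seeing the data), 4 with array weights, 1 with robust variances, 1 with edgeR, 26 with DESeq2 and 0 to 24 without a Mid library. Between Mid and Neg (1 gene) they numbered 0 at pseudocount 0.5, 2 at pseudocount 5, 0 with a filter at 50, 7 with a replicate block within genotype, 6 with array weights, 0 with edgeR, 19 with DESeq2 and 0 to 24 without a Mid library.

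With array weights list medians were -0.35 for endoderm transcription factors, 0.085 for node, -0.42 for epiblast, -0.19 for receptors and -0.59 for Hox genes. On recovered reads edgeR, edgeR on the 6 Mid libraries and DESeq2 gave -0.16, -0.15 and -0.16 for node and -0.24, -0.22 and -0.20 for receptors. A filter at 50 gave 0.037 for blood and -0.14 for trophoblast. Without a Mid library medians ranged from -2.60 to -1.35 for basement membrane, -1.48 to -0.63 for other parietal endoderm markers, -1.10 to -0.52 for collagen secretion, -0.14 to 0.13 for visceral endoderm, -0.19 to 0.057 for node, -0.051 to 0.42 for lateral mesoderm, -0.40 to -0.018 for epiblast, -0.58 to 0.0091 for germ cells, -0.19 to 0.13 for trophoblast, -0.32 to -0.069 for receptors, -0.24 to 0.14 for stress and -0.45 to 0.71 for Hox genes. The causes were not tested. No direction of a called value reversed; among named genes' settings 1471 kept their side of the threshold, 376 lost and 20 gained a call. Low reads limit genes near 0, whose changes are bounds.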
